A study of Mus musculus with 72 samples.

Results

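The Polycomb core subunits are the genes Ezh2, Ezh1, Eed, Suz12, Jarid2, Phf19, Ring1, Rnf2 and Bmi1. They are defined by name, as subunits of the Polycomb repressive complexes, and no measured value enters that rule. These 9 genes are among the 22556 genes of the count files, and each was counted in all 65 replicates and passed the filter on low counts in every comparison.

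Polycomb repressive complex 2 (PRC2) methylates lysine 27 of histone H3 (H3K27me3). EZH2 or its paralogue EZH1 holds the catalytic site, and EED and SUZ12 are needed for its activity. EZH2 is the usual partner in dividing cells, and EZH1 is better known from cells that have stopped dividing. JARID2 and PHF19 are accessory subunits that bring PRC2 to its targets. Polycomb repressive complex 1 (PRC1) places ubiquitin on histone H2A through RING1 (RING1A) or RNF2 (RING1B), and BMI1 (PCGF4) is a RING partner of these in canonical PRC1. Both complexes are recruited to the X chromosome that expresses Xist, and both repress developmental genes in embryonic stem cells (mESCs).

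Chromatin-associated RNA (ChrRNA-seq) was sequenced from female mouse mESCs that carry a Mus musculus domesticus (129S) and a Mus castaneus (Cast) genome. In iXist-ChrX-Dom the endogenous Xist promoter is replaced by a TetOn promoter on the 129S allele, and in iXist-ChrX-Cast on the Cast allele. Doxycycline was given throughout differentiation toward neural precursor cells (NPCs) in N2B27 medium, so the day of differentiation was also the day of Xist induction and the time course cannot separate them. Per the study's protocol, EGF and FGF were added from day 7, when cells were moved to suspension before being plated again and passaged. Late days thus also differed from earlier days in growth factors and culture format, which the time course cannot separate either. SmcHD1 knockout (KO) clones were made with CRISPR-Cas9: A3 in iXist-ChrX-Dom, and D5 and G6 in iXist-ChrX-Cast. Each KO is a single clone. Per the study, days up to 7 come from repeated time courses and late days are individual samples. No label says how far the replicates were separate cultures, so p-values measure the spread between these samples, part of which may be technical. Cells were grown on mitomycin-inactivated mouse fibroblast feeders, which were removed by pre-plating.

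The replicates were grouped as uninduced ES cells, days 2 and 3, days 5 and 7, and late days (day 15 and later). Days within a group were taken as its replicates in tests between groups. The spread behind those tests, and the SDs of a group, thus also hold differences between days. ES libraries were KO only, with 2 of A3, 2 of D5 and 1 of G6, so no WT cells without doxycycline were compared. Days 2 and 3 held 21 replicates (4 in each KO clone and in iXist-ChrX-Dom WT, 5 in iXist-ChrX-Cast WT) and days 5 and 7 held 22. Late days held 17 replicates, 1 for each clone and day (the day 35 replicate of G6 is the sum of runs R1 and R2), at days 15, 21 and 35 in every clone and at day 52 in iXist-ChrX-Dom WT and A3 alone. The labels call days up to 7 mESC to NPC and days from 15 NPC.

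The 72 libraries held 9344054 to 31216487 fragments each. Smchd1 was still counted in the KO clones, at 217 to 616 RPM (fragments of the gene after each library was scaled to 1000000) against 360.2 to 709 RPM in WT, so total counts of this gene do not check the edits. Of the genes that mark NPCs, Sox1 was listed at 0 in all 65 replicates and Pax6 ranged from 0.213 to 9.39 RPM at late days, while Nes reached 298 RPM. The 6 neural precursor markers summed to 15.9 to 74.5 RPM at days 2 and 3 and to 33.7 to 302 RPM at late days. Nes alone ran from 11.1 to 73.0 RPM and from 24.6 to 298 RPM in these periods, while the Pax6 median went from 2.02 to 0.868 RPM. The sum therefore does not stand for each marker: in D5 2 of 3 tested rose and 1 fell, and in G6 1 rose and 1 fell. The 5 fibroblast markers summed to 4.99 to 124 RPM before day 15 and to 224 to 15048 RPM at late days. In every clone 4 of the 5 rose, and 1 fell in every clone but iXist-ChrX-Cast WT. The 6 mESC markers summed to 162 to 842 RPM at days 2 and 3 and to 2.82 to 187 RPM at late days. All late changes given here moved together with these marker sums, and their part in the results was not tested. In bulk libraries, fewer cells of a type and less RNA per cell cannot be told apart. In 7 of the 12 iXist-ChrX-Dom WT libraries the median Cast share of genes past 140 Mb on chromosome 6 was 0.0607 to 0.178, against 0.478 to 0.516 in the other 5. The 7 were replicate 2 of days 2, 3, 5 and 7 and the libraries of days 21, 35 and 52. The other 5 were replicate 1 of days 2, 3, 5 and 7 and the day 15 library. In D5 this share was 0.623 to 0.659 in every replicate, against 0.463 to 0.516 in iXist-ChrX-Cast WT and G6. No Polycomb core subunit lies past 140 Mb on chromosome 6. The part of these differences between libraries in the comparisons was not tested.

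Between days 2 and 3 and the late days, Suz12 and Jarid2 fell to between 0.377 and 0.510 of their early level in each of the 5 clones. Bmi1 and Rnf2 rose in each of the 5 after TMM scaling (trimmed mean of M values), although by library totals Bmi1 passed in the 3 KO clones alone and Rnf2 in none. Phf19 fell in 4 clones, Eed fell in 2 and Ring1 rose in 3. Neither catalytic subunit of PRC2 passed the test in any clone. By edgeR's quasi-likelihood test with Benjamini-Hochberg (BH) adjustment over all genes, 6 of 9 subunits changed in iXist-ChrX-Dom WT (2 up, 4 down), where 48.7% of 17113 genes changed (26.1% up and 22.6% down). By library totals the split moved from 4470 up of 8342 genes to 3052 up of 8698 there, and by a like amount in the other clones. In A3 7 changed (3 up, 4 down), against 59.5% of genes (33.3% up, 26.2% down). In iXist-ChrX-Cast WT 6 changed (3 up, 3 down), against 48.9% of 17869 genes (26.4% up, 22.5% down). In D5 5 changed (2 up, 3 down) against 52.5% (26.4% up, 26.1% down), and in G6 5 changed (3 up, 2 down) against 53.9% (27.8% up, 26.1% down). With 9 genes these shares lie near or a little above those of all genes, and nothing is read from the number called.

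**Figure D1:**
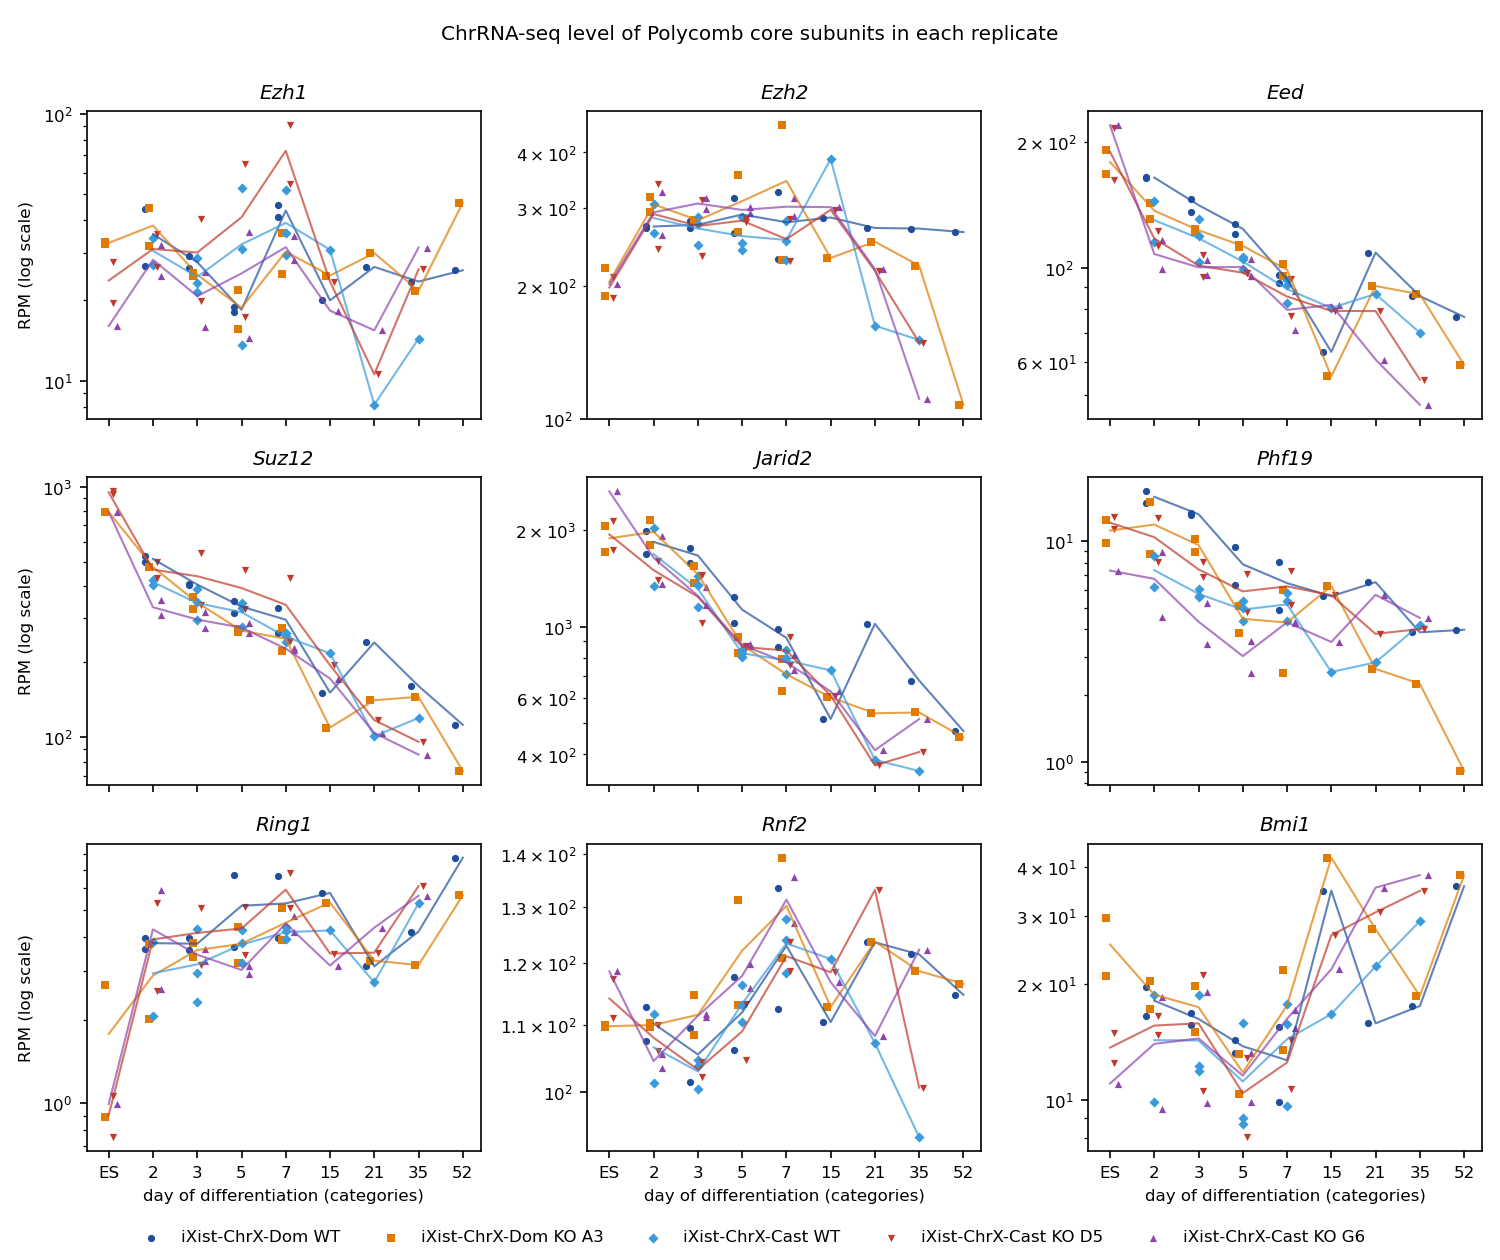
Each panel shows 1 gene, with the day of differentiation as categories on the x axis and its level in RPM on a log y axis. Points are replicates, coloured by clone, and lines join the means of each clone: Suz12 descends from 789.9 to 956 RPM in ES cells to 73.3 to 239 RPM at late days, while Rnf2 stays between 93.8 and 139 RPM.

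**Figure D2:**
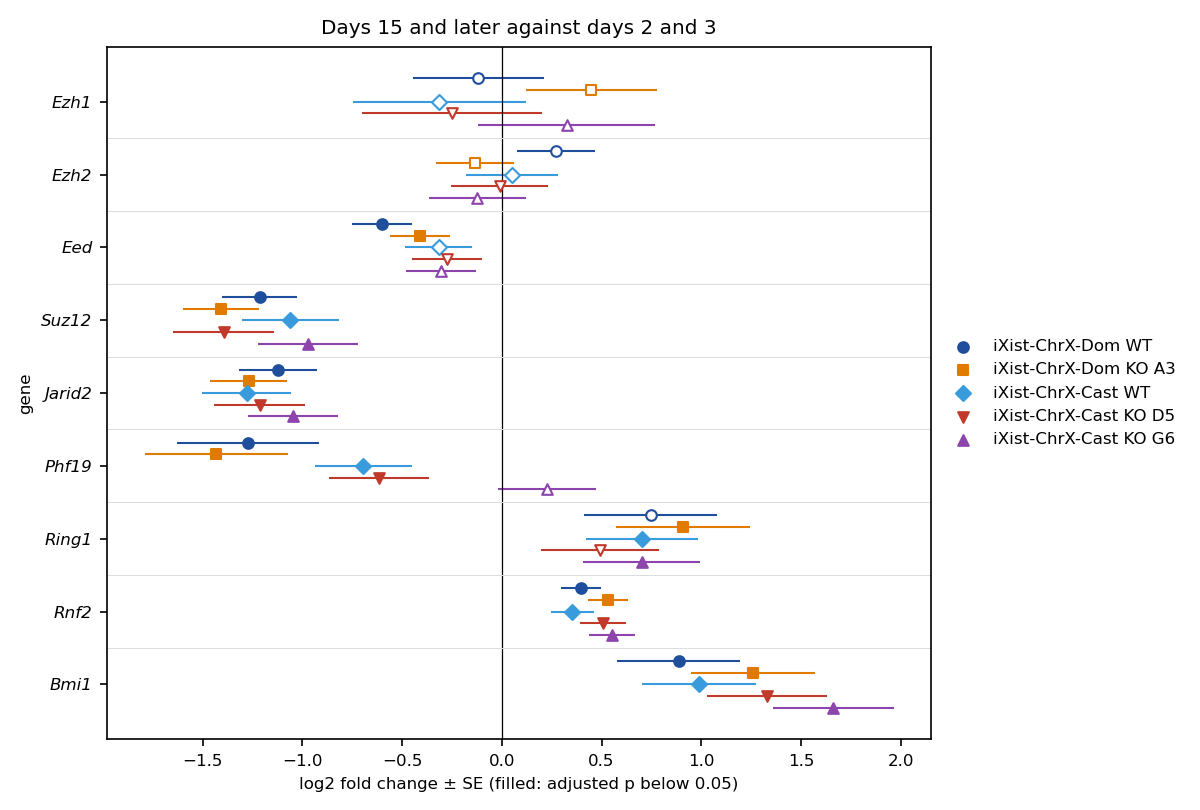
Points give the log2 fold change of late days against days 2 and 3 (x axis) for each gene (y axis) in each of the 5 clones, bars give the SE, and filled symbols have an adjusted p below 0.05 by edgeR. Suz12 and Jarid2 lie between -1.41 and -0.97 with all symbols filled, Bmi1 between 0.89 and 1.66, and no symbol of Ezh1 or Ezh2 is filled.

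Ezh2 encodes the main histone H3K27 methyltransferase. The gene is at chr6:47530273-47595030 (mm10, minus strand). In iXist-ChrX-Dom WT its level was 271 and 273 RPM at day 2, 269 and 279.8 RPM at day 3, then 285, 269.9, 269 and 264 RPM at days 15, 21, 35 and 52. These early and late values overlapped, with a log2 change of 0.27 (SE 0.20, adjusted p = 0.26 by edgeR). In iXist-ChrX-Cast WT days 2 and 3 gave 306, 263, 285, 275 and 247 RPM, and days 15, 21 and 35 gave 387, 162 and 151 RPM. Day 15 was above all 5 early libraries and days 21 and 35 were below all of them. Taken as a group, these days did not differ from the early ones (log2 change 0.05, SE 0.23, adjusted p = 0.87 by edgeR). Day 15 alone against the early days of its own header series (libraries named without the NPCd prefix) gave 0.63 (SE 0.23, adjusted p = 0.042 by edgeR), a comparison added after the values were seen. In the KO clones the late levels were 231, 251, 222 and 107 RPM in A3, 297, 216 and 149 RPM in D5, and 301, 218 and 111 RPM in G6. In each KO clone, and in both WT lines, the last day was the lowest of the late days. The log2 changes of the late group were -0.13 in A3, -0.01 in D5 and -0.12 in G6, none of which passed the test. The uninduced ES libraries ranged from 187 to 219 RPM and the days 2 and 3 libraries of all clones from 233 to 339 RPM. These ranges did not overlap, yet the step did not pass the test in any of the 3 KO clones (0.57, 0.46 and 0.40, with adjusted p of 0.11, 0.23 and 0.56 by edgeR).

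Ezh1 encodes the second methyltransferase of PRC2 and is at chr11:101191114-101226450 (mm10, minus strand). Over all clones its level had a median of 27.9 RPM in ES cells, 26.9 RPM at days 2 and 3, 33.02 RPM at days 5 and 7, and 23.5 RPM at late days. Libraries of a single day were far apart, as at day 5 in D5, where they gave 64.6 and 17.3 RPM. Late values ran from 20.0 to 26.7 RPM in iXist-ChrX-Dom WT, 21.7 to 46.4 RPM in A3, 8.12 to 30.9 RPM in iXist-ChrX-Cast WT, 10.6 to 26.1 RPM in D5 and 15.4 to 31.5 RPM in G6. The late log2 changes were -0.12, 0.45, -0.31, -0.25 and 0.32 in that order, with SE of 0.33 to 0.45, and none passed the test. With SEs of this size, a change of the extent seen for Ezh1 in A3 could not be told from 0.

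The balance of Ezh1 to Ezh2 was compared as a ratio. The log2 ratio of Ezh1 to Ezh2 counts does not depend on how libraries are scaled. It was -3.15 ± 0.34 (SD, n = 4) at days 2 and 3 and -3.51 ± 0.23 (SD, n = 4) at late days in iXist-ChrX-Dom WT, a difference of -0.36. The difference was 0.54 in A3, -0.41 in iXist-ChrX-Cast WT, -0.27 in D5 and 0.42 in G6. Early and late ratios overlapped in all 5 clones, and exact two-sided permutation tests gave p of 0.0857 to 0.686. These tests have little reach: the smallest p is 0.0286 for 4 against 4 libraries, 0.0357 for 3 against 5 and 0.0571 for 3 against 4, and after BH adjustment over all 20 late ratio tests (4 ratios in 5 clones) no p under 0.0571 was possible. Per kilobase of gene, Ezh1 made up 12.0 to 26.8% of the sum of both genes on average in a clone and period. The largest late share was that of A3, where day 52 combined 46.4 RPM of Ezh1 with 107 RPM of Ezh2.

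Suz12 encodes the subunit on which the PRC2 core is assembled and is at chr11:79993105-80034123 (mm10, plus strand). Its median level was lower in each later period. Over all clones the lowest, median and highest values were 789.9, 792 and 956 RPM in ES cells and 273, 406 and 542 RPM at days 2 and 3. They were 222, 271 and 463 RPM at days 5 and 7, and 73.3, 119 and 239 RPM at late days. In iXist-ChrX-Dom WT days 2 and 3 gave 531, 498, 407 and 406 RPM, and days 15, 21, 35 and 52 gave 151, 239, 160.1 and 112 RPM. In iXist-ChrX-Cast WT days 2 and 3 gave 425, 406, 346, 390.0 and 293 RPM, and days 15, 21 and 35 gave 216, 101 and 119 RPM. The late libraries of both WT lines were thus all below the early ones. In A3 days 2 and 3 gave 477, 478, 364 and 324 RPM, and days 15, 21, 35 and 52 gave 109, 140.5, 145 and 73.3 RPM. In D5 days 2 and 3 gave 502, 431, 542 and 336 RPM, and days 15, 21 and 35 gave 194, 117 and 95.9 RPM. In G6 days 2 and 3 gave 353, 307, 316 and 273 RPM, and days 15, 21 and 35 gave 171, 104 and 85.3 RPM. Every late library was below every day 2 and 3 library of its clone, and also below every day 5 and 7 library, in all 5 clones.

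The late log2 change of Suz12 was -1.21 (SE 0.19, adjusted p = 3.5e-05) in iXist-ChrX-Dom WT and -1.41 (SE 0.19, adjusted p = 4.0e-06) in A3. It was -1.06 (SE 0.24, adjusted p = 0.00053) in iXist-ChrX-Cast WT, -1.39 (SE 0.25, adjusted p = 3.2e-05) in D5 and -0.97 (SE 0.25, adjusted p = 0.0015) in G6, all by edgeR. The call held in each clone without any 1 library, and under each scaling of the libraries that was tried. Within the NPCd header series (libraries whose names carry that prefix) the change was -1.02 to -1.42, and with day 15 alone in the other series -0.63 to -1.56, passing in all 5 clones.

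Eed encodes the subunit that reads H3K27me3 and stimulates the enzyme, at chr7:89954653-89980976 (mm10, minus strand). Its median level was also lower in each later period. Over all clones the lowest, median and highest values were 162, 190.5 and 219 RPM in ES cells and 95.5, 122 and 165 RPM at days 2 and 3. They were 71.2, 96.9 and 128 RPM at days 5 and 7, and 47.4, 79.1 and 109 RPM at late days. Every late library was below every day 2 and 3 library of its clone in all 5 clones. After TMM scaling the fall passed the test in iXist-ChrX-Dom WT (-0.60, SE 0.15, adjusted p = 0.0024 by edgeR) and in A3 (-0.41, SE 0.15, adjusted p = 0.023 by edgeR). It was -0.32 in iXist-ChrX-Cast WT, -0.27 in D5 and -0.30 in G6, without passing. In A3 it was lost without day 15 (-0.33, adjusted p = 0.054) or without day 2 replicate 2 (-0.36, adjusted p = 0.064, both by edgeR). Within the NPCd header series it passed in no clone (-0.06 to -0.45), and with day 15 alone in the other series it passed in iXist-ChrX-Dom WT (-0.98) and A3 (-0.87). Scaled by library totals instead, under which the median change of all genes was -0.25 to -0.43, Eed fell in all 5 clones (-0.63 to -0.87).

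The balance of Eed to Suz12 was compared as a ratio of counts. The log2 ratio of Eed to Suz12 was higher at late days by 0.63 in iXist-ChrX-Dom WT, 0.97 in A3, 0.79 in iXist-ChrX-Cast WT, 1.14 in D5 and 0.68 in G6. In iXist-ChrX-Dom WT it went from -1.59 ± 0.09 (SD, n = 4) to -0.96 ± 0.31 (SD, n = 4). Early and late libraries did not overlap in 4 of the 5 clones and overlapped in iXist-ChrX-Cast WT. The exact two-sided permutation p was 0.0286 in iXist-ChrX-Dom WT and in A3, the smallest that 4 against 4 libraries can give. It was 0.0714 in iXist-ChrX-Cast WT, and 0.0571 in D5 and in G6, the smallest for 3 against 4. None of the 20 late ratio tests could pass after BH adjustment, and the lowest adjusted p was 0.229.

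**Figure D3:**
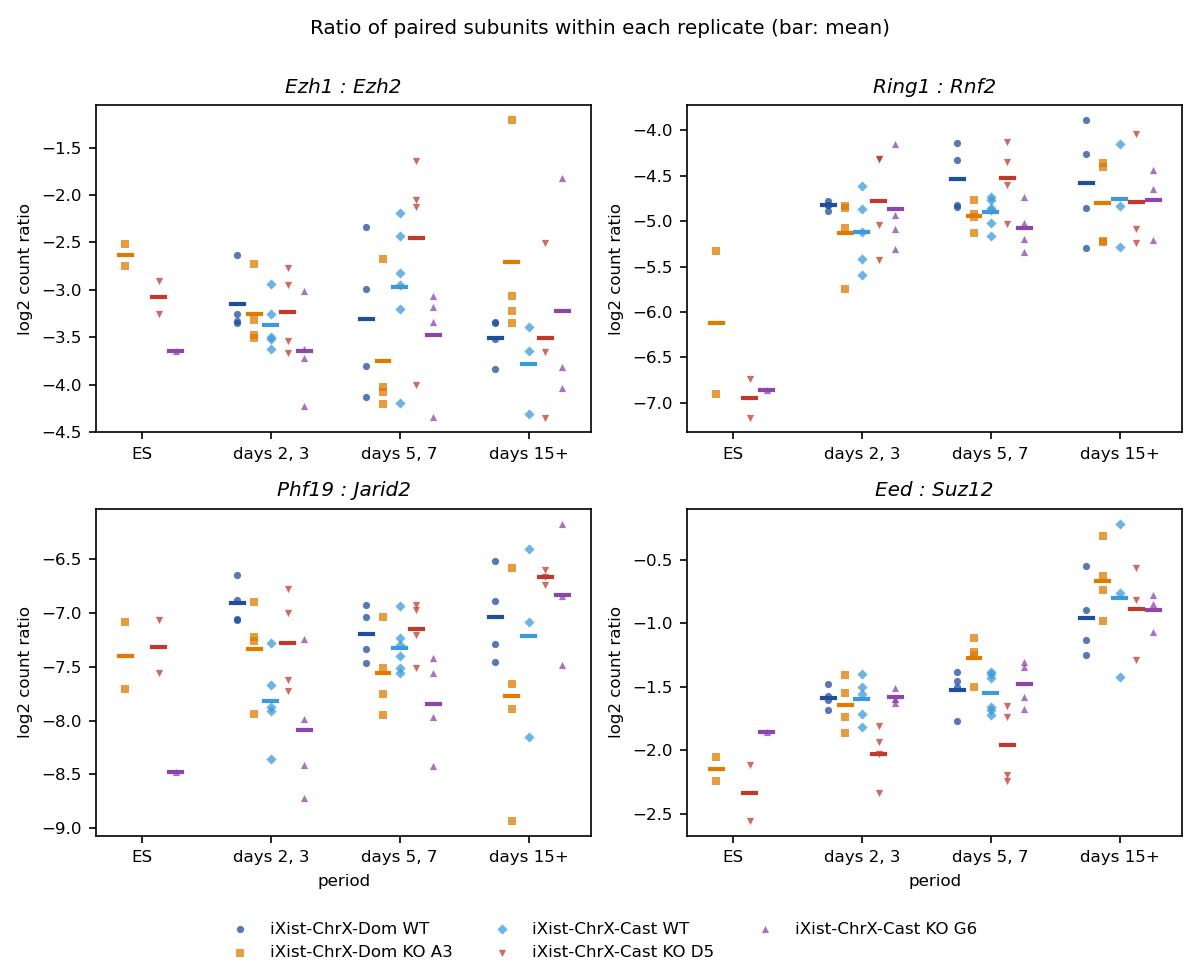
The y axis gives the log2 ratio of the counts of a pair of subunits in a replicate (points), by period (x axis) and clone (colour), and short bars are means. The Eed to Suz12 ratio is higher at late days in each clone, by 0.63 to 1.14, while late and early points of Ezh1 to Ezh2 overlap.

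Jarid2 encodes the accessory subunit that ties PRC2 to H2A ubiquitin and is at chr13:44730773-44921643 (mm10, plus strand). It had the most counts of the 9 genes and spans the longest gene. Over all clones the lowest, median and highest values were 1707, 2066 and 2641 RPM in ES cells and 1029, 1451 and 2149.8 RPM at days 2 and 3. They were 629.5, 845 and 1236 RPM at days 5 and 7, and 355, 516 and 1021 RPM at late days. In iXist-ChrX-Dom WT days 2 and 3 gave 1991, 1684, 1577 and 1758 RPM, and days 15, 21, 35 and 52 gave 516, 1021, 679.9 and 473 RPM. Day 21 stood above the other late libraries of that clone. In iXist-ChrX-Cast WT days 2 and 3 gave 2028, 1341, 1436, 1348 and 1155 RPM, and days 15, 21 and 35 gave 732, 385 and 355 RPM. There day 15 was the highest of the late libraries. In A3 days 2 and 3 gave 1803, 2149.8, 1542 and 1372 RPM, and days 15, 21, 35 and 52 gave 602, 538, 541 and 452 RPM. In D5 days 2 and 3 gave 1602, 1400.0, 1451 and 1029 RPM, and days 15, 21 and 35 gave 610.1, 369.9 and 407 RPM. In G6 days 2 and 3 gave 1920.5, 1362, 1327 and 1170.2 RPM, and days 15, 21 and 35 gave 629, 413 and 516 RPM. No late library reached any day 2 or 3 library of its clone, in any of the 5 clones.

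The late log2 change of Jarid2 was -1.12 (SE 0.19, adjusted p = 9.8e-05) in iXist-ChrX-Dom WT and -1.27 (SE 0.19, adjusted p = 1.6e-05) in A3. It was -1.28 (SE 0.22, adjusted p = 2.0e-05) in iXist-ChrX-Cast WT, -1.21 (SE 0.23, adjusted p = 5.4e-05) in D5 and -1.05 (SE 0.23, adjusted p = 0.00028) in G6, all by edgeR. As with Suz12, the call held without any 1 library and under each scaling. It was -0.83 to -1.34 within the NPCd header series and -0.92 to -1.47 with day 15 alone in the other, passing in all 5 clones.

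Phf19 encodes a PRC2 accessory subunit that binds H3K36me3 and is at chr2:34893754-34913976 (mm10, minus strand). It was low throughout, with 27 to 411 counts in a replicate. In iXist-ChrX-Dom WT days 2 and 3 gave 15.0, 16.8, 13.4 and 13.1 RPM and late days gave 5.64, 6.53, 3.87 and 3.97 RPM. In A3 days 2 and 3 gave 15.1, 8.74, 10.3 and 8.93 RPM and late days gave 6.28, 2.64, 2.26 and 0.908 RPM. In iXist-ChrX-Cast WT days 2 and 3 gave 5.58 to 8.61 RPM and late days gave 2.56, 2.83 and 4.19 RPM. Early and late libraries overlapped in none of these clones or D5, and overlapped in G6 (3.41 to 8.99 RPM against 3.50 to 5.72 RPM).

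The log2 change of Phf19 was -1.27 (SE 0.36, adjusted p = 0.0057) in iXist-ChrX-Dom WT and -1.43 (SE 0.36, adjusted p = 0.0018) in A3. It was -0.69 (SE 0.24, adjusted p = 0.018) in iXist-ChrX-Cast WT, -0.61 (SE 0.25, adjusted p = 0.038) in D5 and 0.23 (SE 0.25, adjusted p = 0.45) in G6, by edgeR. The call was lost in iXist-ChrX-Cast WT without day 15 (-0.52, adjusted p = 0.12), day 21 (-0.65, adjusted p = 0.069) or day 2 replicate 2 (-0.60, adjusted p = 0.051). In D5 it was lost without day 21 (-0.48, adjusted p = 0.17), day 35 (-0.53, adjusted p = 0.14) or day 2 replicate 2 (-0.46, adjusted p = 0.14), all by edgeR. Within the NPCd header series Phf19 changed by -1.37, -2.24, -0.62, -0.98 and 0.37 in iXist-ChrX-Dom WT, A3, iXist-ChrX-Cast WT, D5 and G6, passing in iXist-ChrX-Dom WT, A3 and D5. With day 15 alone in the other series it passed in iXist-ChrX-Cast WT alone (-1.01). In G6 scaling by library totals turned the sign (-0.27). The log2 ratio of Phf19 to Jarid2 changed by -0.13, -0.44, 0.61, 0.61 and 1.26 in iXist-ChrX-Dom WT, A3, iXist-ChrX-Cast WT, D5 and G6. Early and late ratios overlapped in all of these but D5 (exact permutation p = 0.0571, the smallest for 3 against 4).

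The 250 bases before the RefSeq start sites (GRCm38.p6) are shown for the 4 PRC2 subunits that moved down together in one or more clones, and for Bmi1, which moved up. They are given 5′ to 3′ on the strand of the gene, and capitals mark the letters TTTCCCGC or their reverse complement, one of the forms bound by E2F factors. The windows are chr11:79992856-79993105 for Suz12, chr13:44730524-44730773 for Jarid2 (the upstream of 2 listed starts), chr2:34913977-34914226 for Phf19, chr7:89980977-89981226 for Eed and chr2:18676768-18677017 for Bmi1.
Suz12: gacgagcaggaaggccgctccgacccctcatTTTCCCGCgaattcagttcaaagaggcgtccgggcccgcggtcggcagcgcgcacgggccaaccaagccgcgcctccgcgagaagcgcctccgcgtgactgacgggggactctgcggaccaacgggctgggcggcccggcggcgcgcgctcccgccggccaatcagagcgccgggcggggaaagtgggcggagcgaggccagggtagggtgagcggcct
Jarid2: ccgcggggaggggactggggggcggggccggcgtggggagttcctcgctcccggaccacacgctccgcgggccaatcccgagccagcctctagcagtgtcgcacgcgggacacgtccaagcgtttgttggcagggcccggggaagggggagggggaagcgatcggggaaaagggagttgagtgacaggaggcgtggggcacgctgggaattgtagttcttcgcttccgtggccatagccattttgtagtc
Phf19: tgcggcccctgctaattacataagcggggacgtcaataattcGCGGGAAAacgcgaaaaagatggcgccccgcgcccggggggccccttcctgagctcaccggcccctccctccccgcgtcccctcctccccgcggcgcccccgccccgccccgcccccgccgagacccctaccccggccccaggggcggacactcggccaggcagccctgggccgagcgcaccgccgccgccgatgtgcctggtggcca
Eed: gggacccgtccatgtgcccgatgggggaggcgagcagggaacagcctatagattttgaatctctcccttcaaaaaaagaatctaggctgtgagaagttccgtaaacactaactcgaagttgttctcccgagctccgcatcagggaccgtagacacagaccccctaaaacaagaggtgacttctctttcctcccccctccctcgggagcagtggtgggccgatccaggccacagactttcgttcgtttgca
Bmi1: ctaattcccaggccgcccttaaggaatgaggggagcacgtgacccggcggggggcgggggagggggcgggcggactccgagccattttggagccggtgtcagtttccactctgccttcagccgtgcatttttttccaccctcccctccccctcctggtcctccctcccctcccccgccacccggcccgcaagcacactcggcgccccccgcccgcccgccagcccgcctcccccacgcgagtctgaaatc
The E2F letters TTTCCCGC, TTTCGCGC, TTTGCCGC and TTTGGCGC were searched on both strands from 250 bases before to 50 bases after the start. They were present in Suz12 (219 bases before the start), in Phf19 (208 bases before, on the opposite strand) and in Ezh2 (4 bases after). Over all 32851 promoters of the table, 2.26% held one of them. The letters CACGTG were present in Bmi1 only, 215 bases before the start, and in 7.15% of all promoters. The G and C content of the 10 windows of the 9 genes was 54.4 to 75.2%, with a median of 68.8% against 52.4% over all promoters. These matches describe letters, not binding.

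Rnf2 encodes RING1B, the main H2A ubiquitin ligase of mESCs, and is at chr1:151469405-151500823 (mm10, minus strand). Its range over all replicates, 93.8 to 139 RPM, was the narrowest of the 9 genes on a ratio scale. Over all clones its lowest, median and highest values were 109.6, 111 and 119 RPM in ES cells and 100.4, 108 and 115 RPM at days 2 and 3. They were 105, 119 and 139 RPM at days 5 and 7, and 93.8, 117 and 133 RPM at late days. Late and early RPM values overlapped in each clone. After TMM scaling, Rnf2 rose at late days by 0.40 (SE 0.10, adjusted p = 0.0027) in iXist-ChrX-Dom WT, 0.53 (adjusted p = 0.00014) in A3, 0.35 (adjusted p = 0.0078) in iXist-ChrX-Cast WT, 0.51 (adjusted p = 0.00046) in D5 and 0.55 (adjusted p = 0.00016) in G6, by edgeR. The rise rested on the scaling: by library totals it was 0.04 to 0.15 and passed in no clone. Within the NPCd header series it was 0.31 to 0.69 and passed in all clones but iXist-ChrX-Cast WT, and with day 15 alone in the other series it was 0.32 to 0.45 and passed in none. In iXist-ChrX-Cast WT it was also lost without day 21 (0.31, adjusted p = 0.051 by edgeR).

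Ring1 encodes RING1A, the paralogue of RING1B, and is a short gene at chr17:34020791-34024680 (mm10, minus strand). Its counts were the lowest of the 9, at 14 to 317 in a replicate. In ES cells it stood at 2.68 and 0.890 RPM in A3, 0.755 and 1.06 RPM in D5 and 0.996 RPM in G6, on 14 to 25 counts each. At days 2 and 3 all clones gave 2.02 to 5.92 RPM with a median of 3.61 RPM, at days 5 and 7 2.94 to 6.78 RPM, and at late days 2.74 to 7.73 RPM with a median of 4.22 RPM. Early and late values overlapped in each clone. The late change passed the test in A3 (0.91, SE 0.33, adjusted p = 0.023), iXist-ChrX-Cast WT (0.70, SE 0.28, adjusted p = 0.038) and G6 (0.70, SE 0.29, adjusted p = 0.043), and did not in iXist-ChrX-Dom WT (0.75, adjusted p = 0.067) or D5 (0.49, adjusted p = 0.16), by edgeR.

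None of these 3 Ring1 calls was stable. In A3 it was lost without day 15, day 52, day 2 replicate 2 or day 3 replicate 2 (0.58 to 0.87, adjusted p = 0.054 to 0.15). In iXist-ChrX-Cast WT it was lost without day 15, day 35, day 2 replicate 1, day 3 replicate 1 or day 3 replicate 2 (0.49 to 0.72, adjusted p = 0.055 to 0.21). In G6 it was lost without day 21, day 35, day 2 replicate 1, day 3 replicate 1 or day 3 replicate 2 (0.39 to 0.71, adjusted p = 0.068 to 0.34, all by edgeR). In iXist-ChrX-Dom WT, by contrast, it passed without day 21 (0.94, adjusted p = 0.024 by edgeR). By library totals it passed in no clone, within the NPCd header series in none (0.32 to 0.71), and with day 15 alone in iXist-ChrX-Cast WT alone (0.99). The log2 ratio of Ring1 to Rnf2 differed between late and early days by -0.01 to 0.37, with overlap in all 5 clones. Per kilobase, Ring1 made up 11.3, 6.00 and 6.35% of the sum of both genes in ES cells of A3, D5 and G6, and 18.96 to 26.1% in each clone and period after that. H2-Ke6, the neighbour that ends 1352 bases before Ring1 on the same strand, was also higher at late days in each clone. Its log2 changes were 0.63, 0.66, 0.54, 0.59 and 0.87 in iXist-ChrX-Dom WT, A3, iXist-ChrX-Cast WT, D5 and G6, passing in A3 and G6. The part of H2-Ke6 in the Ring1 counts was not tested.

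Bmi1 encodes the PCGF4 subunit and is at chr2:18677017-18686629 (mm10, plus strand). In iXist-ChrX-Dom WT days 2 and 3 gave 19.7, 16.5, 16.8 and 15.6 RPM, and days 15, 21, 35 and 52 gave 34.8, 15.8, 17.5 and 35.7 RPM. In iXist-ChrX-Cast WT days 2 and 3 gave 9.91, 18.7, 12.3, 11.9 and 18.7 RPM, and days 15, 21 and 35 gave 16.7, 22.2 and 29.0 RPM. In both WT lines some late libraries lay within the early range. In A3 late days gave 42.3, 27.7, 18.6 and 38.1 RPM, and the day 35 library was within the early range of 15.0 to 20.3 RPM. In D5 late days gave 26.7, 30.6 and 34.7 RPM against 10.6 to 21.0 RPM early, and in G6 21.8, 35.4 and 38.1 RPM against 9.50 to 19.1 RPM early. Late and early libraries did not overlap in D5 or G6.

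The late log2 change of Bmi1 was 0.89 (SE 0.31, adjusted p = 0.022) in iXist-ChrX-Dom WT and 1.26 (SE 0.31, adjusted p = 0.0016) in A3. It was 0.99 (SE 0.29, adjusted p = 0.0048) in iXist-ChrX-Cast WT, 1.33 (SE 0.30, adjusted p = 0.00046) in D5 and 1.66 (SE 0.30, adjusted p = 3.2e-05) in G6, by edgeR. In iXist-ChrX-Dom WT the call was lost without day 15 (0.70, adjusted p = 0.082), day 52 (0.69, adjusted p = 0.087), day 2 replicate 2 (0.84, adjusted p = 0.054) or day 3 replicate 2 (0.85, adjusted p = 0.053), by edgeR. By library totals it passed in the 3 KO clones (0.81, 0.97 and 1.16) and not in iXist-ChrX-Dom WT (0.60) or iXist-ChrX-Cast WT (0.66). Within the NPCd header series it was 0.82 to 1.57 and passed in 4 clones, all but iXist-ChrX-Dom WT, and with day 15 alone in the other series it was 0.76 to 1.58 and passed in the 3 KO clones. Commd3, the neighbour that ends 801 bases before Bmi1 on the same strand, also rose in all 5 clones (1.09, 1.71, 1.38, 1.89 and 1.89 in iXist-ChrX-Dom WT, A3, iXist-ChrX-Cast WT, D5 and G6). Its part in the Bmi1 counts was not tested.

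The time course was also tested in steps between periods, and the genes differed in the steps at which they moved. The step from ES cells lies before days 2 and 3 and is no part of the late change given above. From ES cells to days 2 and 3, Suz12 fell in A3 (-0.89, SE 0.22), D5 (-1.12, SE 0.27) and G6 (-1.52, SE 0.32). Eed fell in D5 (-0.88, SE 0.19) and G6 (-1.24, SE 0.24), and Jarid2 fell in G6 (-1.04, SE 0.30). Ring1 rose in D5 (2.10, SE 0.40) and G6 (1.73, SE 0.52). That made 1 of 9 subunits changed in A3, 3 in D5 and 4 in G6, where 20.2%, 24.5% and 7.72% of all genes changed by edgeR at an adjusted p of 0.05. The step in A3 was lost without either ES library (-0.96, adjusted p = 0.072, without replicate 1, and -0.82, adjusted p = 0.054, without replicate 2, by edgeR). The Eed step in D5 was lost without ES replicate 1 (-0.48, adjusted p = 0.15 by edgeR). In G6 the single ES library is assumed to vary like the others. There Jarid2 was lost without day 2 replicate 2, day 3 replicate 1 or day 3 replicate 2 (-0.96 to -1.02), and Ring1 without day 2 replicate 2 (1.55).

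From days 2 and 3 to days 5 and 7, Jarid2 fell in all 5 clones, by 0.73 in iXist-ChrX-Dom WT, 0.99 in A3, 0.75 in iXist-ChrX-Cast WT, 0.57 in D5 and 0.67 in G6 on the log2 scale. Rnf2 rose in A3 (0.33), iXist-ChrX-Cast WT (0.30) and G6 (0.34), and Suz12 (-0.55) and Phf19 (-1.16) fell in A3. The counts were 1, 4, 2, 1 and 2 of 9 subunits, with 11.6%, 23.0%, 34.3%, 25.6% and 27.2% of all genes. From days 5 and 7 to the late days, Suz12 fell in all 5 clones (-0.69, -0.86, -0.78, -1.21 and -0.78) and Bmi1 rose in all 5 (1.22, 1.40, 1.02, 1.67 and 1.53). In this step Jarid2 fell in D5 alone (-0.64), and Ezh1 fell in D5 as well (-1.27). Phf19 rose in G6 (0.65). The counts were 2, 2, 2, 4 and 3, with 20.0%, 34%, 30%, 38.4% and 37.0% of all genes. Several of these step calls were lost without 1 library. For Suz12 in the last step these were day 52 in iXist-ChrX-Dom WT (-0.58), days 21 and 35 in iXist-ChrX-Cast WT (-0.63 and -0.68) and days 21 and 35 in G6 (-0.73 and -0.65). For Bmi1 they were day 52 in iXist-ChrX-Dom WT (1.00) and day 35 in iXist-ChrX-Cast WT (0.80). The Jarid2 fall in D5 between days 2 and 3 and days 5 and 7 was lost without any 1 of 7 libraries (-0.48 to -0.61). In iXist-ChrX-Dom WT that fall was lost without day 2 replicate 1, day 7 replicate 1 or day 7 replicate 2 (-0.66 to -0.71), and in G6 without day 2 replicate 1 or day 7 replicate 1 (-0.47 and -0.61). Rnf2 in G6 was lost without day 2 replicate 2 (0.27) or day 7 replicate 1 (0.32). In A3 Suz12 was lost without any 1 of 6 libraries (-0.41 to -0.60), Rnf2 without any of 5 (0.22 to 0.31) and Phf19 without any of 3 (-1.01 to -1.11). The Ezh1 fall in D5 was lost without day 21, day 5 replicate 1 or day 7 replicate 1 (-0.93 to -1.20), and the Jarid2 fall there without day 21 or day 35 (-0.51 and -0.59). The Phf19 rise in G6 was lost without day 21, day 35 or either day 5 library (0.44 to 0.62).

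Levels of different genes were compared as RPM per kilobase of the counted gene span, since unspliced RNA is read over introns. In ES cells Suz12 was the highest of the 9, at 19.3, 23.1 and 19.3 RPM per kilobase in A3, D5 and G6. Jarid2 followed (9.88, 10.2 and 13.8), then Eed (6.79, 7.19 and 8.31), Rnf2 (3.49, 3.63 and 3.78) and Ezh2 (3.15, 3.06 and 3.11). Ring1 was the lowest (0.458, 0.233 and 0.256). At days 2 and 3 Suz12 had mean levels of 7.62 to 11.2 RPM per kilobase, and overlapped Jarid2 at 7.18 to 9.18. At late days the order had closed up. The highest mean was that of Ezh2 in iXist-ChrX-Dom WT (4.20 RPM per kilobase) and iXist-ChrX-Cast WT (3.60), and of Rnf2 in A3 (3.75), D5 (3.74) and G6 (3.69). Suz12 then had means of 2.85 to 4.03 RPM per kilobase. Ezh2, Suz12, Rnf2, Jarid2, Eed and Bmi1 took the top 6 places at 2.35 to 4.20 RPM per kilobase, and each overlapped the next in order. Phf19 was the lowest in every clone at late days, at 0.149 to 0.247.

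**Figure D4:**
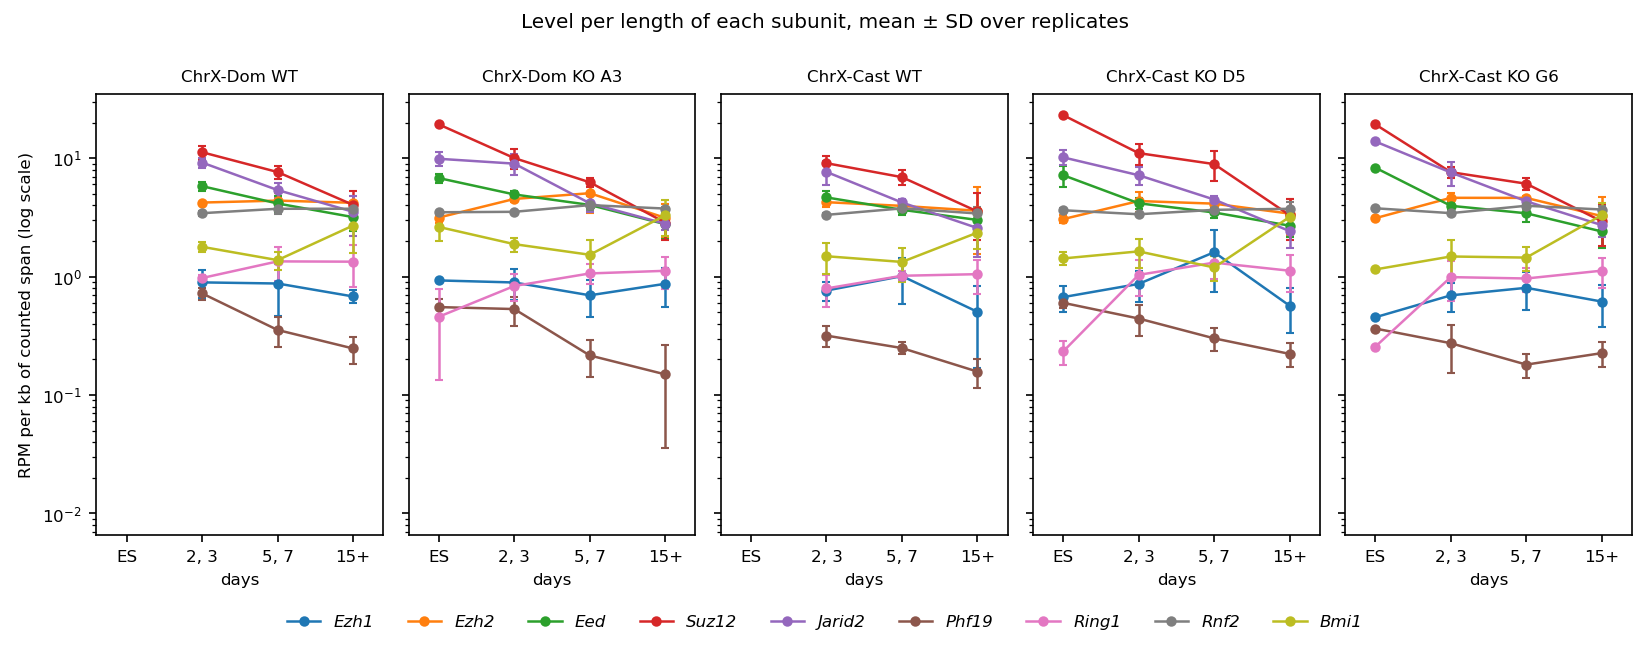
The y axis (log scale) gives the mean RPM per kilobase of each gene, with bars for the SD over replicates, against the period on the x axis in each clone; G6 has a single ES library and so no SD there. Suz12 leads in ES cells at 19.3 to 23.1 RPM per kilobase, and at late days 6 genes lie between 2.35 and 4.20.

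Both alleles were read for each subunit. The Cast share of allelic fragments, pooled over a clone, was 0.479 to 0.493 for Suz12 and 0.496 to 0.506 for Jarid2, against a median of 0.488 to 0.489 over autosomal genes. Ring1 was read more from the 129S allele in each clone, with Cast shares of 0.255, 0.286, 0.281, 0.307 and 0.288 on 512 to 597 fragments each in iXist-ChrX-Dom WT, A3, iXist-ChrX-Cast WT, D5 and G6. These shares lay below the 5th percentile of autosomal genes with at least 1000 allelic fragments in the clone, a depth that Ring1 itself did not reach. They are given without a test. For Ezh1 the shares were 0.515 and 0.581 in iXist-ChrX-Dom WT and A3, and 0.412, 0.424 and 0.417 in iXist-ChrX-Cast WT, D5 and G6.

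Whether loss of SmcHD1 alters these genes was addressed by comparing KO with WT on the same days. No Polycomb core subunit passed the test in either line or period in the fit of day plus genotype, and 1 (Phf19 in iXist-ChrX-Dom) passed with header series as a block. In iXist-ChrX-Dom at days 2 to 7, 0 of 9 subunits and 124 of 15443 genes (0.803%) differed by edgeR, with 2134 genes at an unadjusted p under 0.05. In iXist-ChrX-Cast at days 2 to 7, with D5 and G6 together, it was 0 of 9 and 59 of 15499 genes (0.381%), with 1528 at an unadjusted p under 0.05. At late days no gene at all passed by edgeR in iXist-ChrX-Dom (0 of 15229, or 0%, with 1622 at an unadjusted p under 0.05) or iXist-ChrX-Cast (0 of 14963, or 0%, with 1898). DESeq2 called 184 and 443 genes there, and a single edgeR fit over each line 1379 and 1870, again with 0 of 9 subunits. Taken alone at days 2 to 7, D5 differed from WT in 8.32% of genes and G6 in 1.78%, with 0 of 9 subunits in either.

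At days 2 to 7 in iXist-ChrX-Dom the KO minus WT log2 differences ran from -0.54 for Phf19 (SE 0.17, adjusted p = 0.15 by edgeR) to 0.20 for Ezh2 (SE 0.14). Suz12 was at -0.19 (SE 0.07, adjusted p = 0.25 by edgeR). The Phf19 level in A3 was below WT on each of the 4 days as a mean. At day 2 WT gave 15.0 and 16.8 RPM and A3 15.1 and 8.74 RPM, and at day 3 WT gave 13.4 and 13.1 RPM and A3 10.3 and 8.93 RPM. At day 5 WT gave 6.33 and 9.41 RPM and A3 5.07 and 3.83 RPM, and at day 7 WT gave 4.87 and 8.05 RPM and A3 6.03 and 2.54 RPM. The genotypes overlapped at days 2 and 7 and not at days 3 and 5. Libraries of the same header series deviated together in WT and A3 (r = 0.4477 to 0.7342 across genes on the 4 days). With that series as a block, a fit added after the values were seen, the Phf19 difference was -0.56 (SE 0.12) and passed (adjusted p = 0.022 by edgeR). DESeq2 gave it an adjusted p of 0.056. The 6 mESC markers summed to a mean of 376 RPM in A3 and 697 RPM in WT at days 2 and 3, with overlapping ranges. At days 5 and 7 the means were 158 and 313 RPM, also overlapping. Of these markers 0 passed up and 1 down (Zfp42, -1.05) at days 2 to 7, by edgeR. Of 3 neural precursor markers tested 0 passed up and 1 down (Pax6, -1.15). Phf19 fell over time in both genotypes, and the part of these marker differences in its KO difference was not tested. In D5 Phf19 was at 0.29 and in G6 at -0.34, neither passing. It was above WT on 4 of 4 days in D5 and on 0 of 4 in G6.

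In iXist-ChrX-Cast at days 2 to 7, with D5 and G6 together, the 9 differences lay between -0.16 (Eed) and 0.21 (Ring1). Taken alone, Suz12 was at 0.28 in D5 and -0.18 in G6, and Ezh1 at 0.37 and -0.21, without passing. Only Eed and Ring1 had the same sign in both clones. At late days the largest differences were Phf19 (0.62, SE 0.29, adjusted p = 0.42) and Bmi1 (0.56, SE 0.16, adjusted p = 0.30 by edgeR) in iXist-ChrX-Cast. In iXist-ChrX-Dom they were Phf19 (-0.86, SE 0.37, adjusted p = 0.47), Bmi1 (0.45, SE 0.16, adjusted p = 0.46) and Ezh1 (0.43, SE 0.22, adjusted p = 0.48 by edgeR). The Bmi1 differences were above 0 in both lines, without passing. Of the 16 KO against WT tests of the 4 ratios, the lowest adjusted p by exact permutation was 0.321. The lowest raw p was 0.0201, for Ring1 to Rnf2 in iXist-ChrX-Dom at days 2 to 7, where the log2 ratio was 0.35 lower in A3 (-0.35). At late days in iXist-ChrX-Dom the 16 arrangements allow no p under 0.125.

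**Figure D5:**
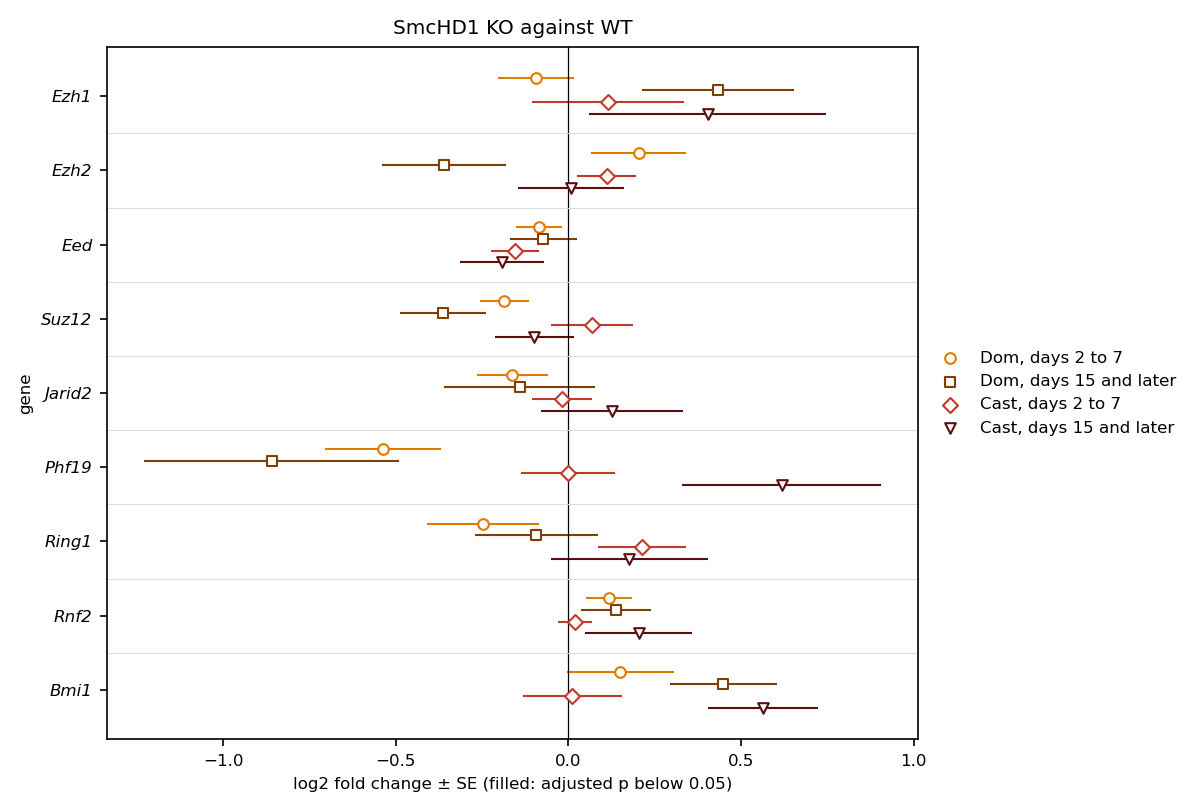
Points give the log2 fold change of SmcHD1 KO against WT (x axis) for each gene (y axis) in each line and period, with bars for the SE. No symbol is filled, as no adjusted p by edgeR was below 0.05, and the Phf19 points run from -0.86 to 0.62.

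The late change itself did not pass a test of difference between genotypes for any subunit. In iXist-ChrX-Dom the interaction was called for 0 of 17113 genes, or 0%, by edgeR (835 at an unadjusted p under 0.05), and in iXist-ChrX-Cast for 5 of 17869 genes, or 0.0280% (1472 at an unadjusted p under 0.05). DESeq2 called 2 and 56 genes, with 0 of 9 subunits. Suz12 had interactions of -0.20 (SE 0.26) and -0.12 (SE 0.29), and Jarid2 of -0.15 (SE 0.27) and 0.15 (SE 0.26). Phf19 had interactions of -0.16 (SE 0.50) and 0.50 (SE 0.30). Taken alone, D5 gave 0.08 (SE 0.34) for Phf19 and G6 gave 0.92 (SE 0.34, adjusted p = 0.34 by edgeR). The interactions of Bmi1 were 0.38 (SE 0.43) and 0.51 (SE 0.36), so a difference of a whole log2 unit lay within 2 SE of both. The late WT change of the lines also differed for 0 of 16038 genes, or 0%, by edgeR (1458 at an unadjusted p under 0.05) and for 100 by DESeq2, with 0 of 9 subunits and the widest gap of the 9 at Phf19 (-0.60, SE 0.30). Without the day 15 library of iXist-ChrX-Cast WT, Ezh2 differed between the lines (0.71, adjusted p = 0.040 by edgeR).

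Other Polycomb genes moved in both directions over the same interval, as did all genes (26.1% up and 22.6% down in iXist-ChrX-Dom WT, 33.3% and 26.2% in A3, 26.4% and 22.5% in iXist-ChrX-Cast WT, 26.4% and 26.1% in D5, 27.8% and 26.1% in G6). Of 8 further PRC2 accessory genes, 1 rose and 3 fell in iXist-ChrX-Dom WT, 1 and 4 in A3, 1 and 2 in iXist-ChrX-Cast WT, 1 and 3 in D5, and 2 and 3 in G6. Their median log2 changes in the WT lines were -0.14 and -0.14, against 0.02 and 0.02 over all genes tested. Ezhip, an inhibitor of PRC2 (AU022751 in the files), fell by 2.87 in iXist-ChrX-Dom WT and by 3.61 in iXist-ChrX-Cast WT on the log2 scale, from low levels. Mtf2 fell by 0.52 and by 0.88, and its paralogue Phf1 rose by 1.22 and by 1.17. Xist was induced over the same interval. The part of X inactivation in the falls of X-linked genes, in this list and those below, was not tested.

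Of 26 further PRC1 genes 25 were tested, and Cbx6 was listed at 0. In iXist-ChrX-Dom WT 10 rose and 7 fell, in A3 11 and 7, in iXist-ChrX-Cast WT 9 and 8, in D5 8 and 9, and in G6 9 and 7. Their median log2 changes were 0.29 and 0.14 in the WT lines. Among 15 that moved the same way in both WT lines, large changes in both directions occurred within families of paralogues. The chromodomain gene Cbx7 fell (-2.75 and -3.73 in iXist-ChrX-Dom WT and iXist-ChrX-Cast WT) while its paralogue Cbx8 (2.66 and 1.89) rose. Cbx8 was low, at a mean of 0.488 RPM over all replicates against 68.1 RPM for Cbx7. Of the Polyhomeotic genes, Phc1 fell (-2.16 and -3.31) and Phc2 rose (3.30 and 2.91). Yaf2, a subunit of variant PRC1, rose (1.97 and 1.64).

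Of 6 genes of enzymes that act against Polycomb, 2 rose and 2 fell in both WT lines and in A3, 2 rose and 1 fell in D5, and 1 rose and 1 fell in G6. The H3K27 demethylase Kdm6b rose (1.12 and 1.01 in iXist-ChrX-Dom WT and iXist-ChrX-Cast WT), and its X-linked paralogue Kdm6a fell (-0.66 and -0.93). Asxl3 rose (2.39 and 1.87) and Asxl2 fell (-0.61 and -0.71). The median log2 changes of these 6 were 0.01 and -0.08 in the WT lines. Of 11 classical Polycomb targets, 5 of 10 tested rose in iXist-ChrX-Dom WT and A3. In iXist-ChrX-Cast 8 of 11 rose in WT, 9 in D5 and 5 in G6, and none fell in any clone. Their median log2 change was 1.79 to 2.58 over the clones, against -0.03 to 0.12 over all genes, of which 26.1 to 33.3% rose. Pax3 (6.92 and 6.40), Cdx2 (5.06 and 6.29), Brachyury (T, 6.64 and 4.64) and Cdkn2b (2.09 and 3.90) rose in both WT lines. Of these, Cdx2 was low, with a mean of 0.711 RPM over all replicates. No gene of these 4 lists differed between KO and WT.

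Of 10 cell-cycle genes, 6 fell in iXist-ChrX-Dom WT, 9 in A3, 9 in iXist-ChrX-Cast WT, 8 in D5 and 9 in G6, and none rose. Of all genes 22.6%, 26.2%, 22.5%, 26.1% and 26.1% fell in that order. The median log2 change of the 10 was -0.69, -1.35, -0.88, -0.87 and -1.18. Their sum went from 1693 to 2794 RPM at days 2 and 3 to 274 to 1478 RPM at late days. The falls of Suz12 and Jarid2 ran alongside this in each clone. That of Phf19 did so in each clone but G6, where Phf19 changed by 0.23. The part of the cell-cycle change in these falls was not tested.

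Over all 65 replicates and 16981 genes, the genes whose log2 level followed Suz12 most closely were Alg13 (r = 0.964), A830080D01Rik (r = 0.950) and Zbtb44 (r = 0.946). Jarid2 was followed by Gk5 (r = 0.954), Hpse2 (r = 0.944) and Fbxo7 (r = 0.942). For Ezh2 the closest was Pde7a (r = 0.861), for Ezh1 Spg11 (r = 0.769), for Eed Ino80 (r = 0.893), for Rnf2 Btbd7 (r = 0.921), for Ring1 Plekhh3 (r = 0.881), for Bmi1 Pcdha4-g (r = 0.898) and for Phf19 Depdc7 (r = 0.798). Among the subunits themselves Suz12 and Jarid2 were the most alike (r = 0.862), followed by Eed and Suz12 (r = 0.802), while Eed and Ring1 ran in opposite directions (r = -0.853). The value for Ezh1 and Ezh2 was -0.03. These correlations describe points that share time course, clones and libraries, and are given without a test.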

How the data were processed

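ChrRNA-seq libraries were made with a stranded total RNA kit. The authors removed rRNA reads with Bowtie2 (2.3.2), aligned the rest to N-masked mm10 with STAR (2.4.2a), assigned alleles with SNPsplit, and obtained strand-specific gene counts over whole transcripts with featureCounts (1.5.2). The deposited counts are whole, unnormalised numbers for 22556 genes: total, Cast and 129S.

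Runs R1 and R2 of a replicate were summed, which left 65 replicates of 72 libraries. Groups were clone and period from the labels. Levels are RPM, counts after scaling each library to 1000000 fragments. Tests used edgeR 4.0.16 (R 4.3.3; quasi-likelihood, TMM, low counts filtered by filterByExpr, BH over all genes tested, threshold 0.05), with 1 fit per line and 1 coefficient per clone and period, or day plus genotype for KO against WT. Ratios used log2 counts plus 0.5 and exact permutation. Scripts were tested on simulated data. Alternatives were DESeq2 1.42.0, other scalings, no filter, separate runs, each replicate left out, and, added after the values were seen, header series of the libraries (names with the NPCd prefix, or others).

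The members are defined by name alone, but they and the lists were chosen with earlier results of these data known. Named genes were the 9 subunits, up to 6 of each further list that passed in WT of both lines in 1 direction, by size of change, any list gene that passed KO against WT, and the genes most alike each subunit by Pearson's r. A gene that this rule names is not reported here. Of the other lists, Zfp42 (-1.05) and Pax6 (-1.15) passed, in A3 at days 2 to 7. Depth limits Ring1 and Phf19 most, and intervals over replicates include counting error.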

Additional observations from a re-analysis of the deposited data

How the results depend on the processing

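The Suz12 and Jarid2 falls passed in all 5 clones under every scaling, with each library left out, and within each header series (Suz12 -1.02 to -1.42 and Jarid2 -0.83 to -1.34 within the NPCd series). Late days against days 5 and 7, instead of days 2 and 3, left 2 subunits called in iXist-ChrX-Dom WT, 2 in A3, 2 in iXist-ChrX-Cast WT and 3 in G6. Day 15 alone left 3, 4, 3 and 3 in iXist-ChrX-Dom WT, A3, D5 and G6, and the NPCd series left 3 in iXist-ChrX-Cast WT. Day 15 alone and the NPCd series used fewer libraries, and the comparison with days 5 and 7 changed the reference period. The cause of these moves was not tested. The all-gene counts fell likewise, to 3422, 5825 and 5353 against days 5 and 7 in iXist-ChrX-Dom WT, A3 and iXist-ChrX-Cast WT. They were 5240 within the NPCd series in iXist-ChrX-Dom WT, and 3854, 5155, 4838, 4030 and 3283 with day 15 alone.

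Of the steps, days 5 and 7 against days 2 and 3 gave 4 subunits in iXist-ChrX-Dom WT by DESeq2 and 2 by RLE size factors, 0 in D5 with no filter and 3 with R1 and R2 separate, and 1 in G6 by library totals. Late against days 5 and 7 gave 5 in A3 by library totals and 5 in G6 with R1 and R2 separate. Without 1 replicate, the days 2 and 3 against ES counts were 0 to 1 in A3 and 2 to 4 in G6. The days 5 and 7 against days 2 and 3 counts were 0 to 2 in iXist-ChrX-Dom WT, 1 to 3 in A3, 0 to 1 in D5 and 0 to 2 in G6. The late against days 5 and 7 counts were 0 to 3 in iXist-ChrX-Dom WT, 0 to 4 in iXist-ChrX-Cast WT, 2 to 4 in D5 and 1 to 4 in G6. The line difference went from 0 to 1, with Ezh2 passing.

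Replicate numbers did not pair the genotypes. Same-numbered libraries of iXist-ChrX-Dom deviated in opposite directions (r = -0.4477 to -0.7342 on 4 days, across genes), and those of iXist-ChrX-Cast had r of -0.2886 to 0.8113. Libraries of the same header series deviated together on every day (r = 0.4477 to 0.7342 and 0.4083 to 0.8113). In iXist-ChrX-Dom both pairings use the same libraries, so their r are the same values with the sign turned and not separate observations. With the replicate block 0 of 9 subunits passed in both lines, and 130 genes in iXist-ChrX-Dom and 249 in iXist-ChrX-Cast. With header series as a block 1 subunit passed in iXist-ChrX-Dom (Phf19), and 540 and 206 genes. KO against WT at days 2 to 7 called 559 and 241 genes by DESeq2, 114 in iXist-ChrX-Cast by library totals, 37 there with no filter, and 73 in iXist-ChrX-Dom by the single fit. Of the interaction in iXist-ChrX-Cast, R1 and R2 separate gave 28 genes.

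Several ratio differences, none of which had passed after BH adjustment, changed sign. With R1 and R2 separate, Ring1 to Rnf2 late in D5 was 0.0387 and Ezh1 to Ezh2 KO against WT in iXist-ChrX-Cast at days 2 to 7 was 0.0347. Without 1 replicate, Ezh1 to Ezh2 late was -0.77 to 0.15 in D5 and -0.28 to 0.83 in G6. Ring1 to Rnf2 late was -0.38 to 0.21 in D5 and -0.0544 to 0.35 in G6, and Phf19 to Jarid2 late was -0.30 to 0.0113 in iXist-ChrX-Dom WT. In iXist-ChrX-Cast KO against WT, Ezh1 to Ezh2 was -0.17 to 0.0759 and Phf19 to Jarid2 was -0.15 to 0.11 at days 2 to 7, and Ring1 to Rnf2 was -0.20 to 0.12 and Eed to Suz12 was -0.26 to 0.089 at late days.

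As TMM-scaled CPM, late means moved beyond their SD for Rnf2 (125, 139, 123, 134 and 149 in iXist-ChrX-Dom WT, A3, iXist-ChrX-Cast WT, D5 and G6). They did so for Bmi1 in D5 and G6 (35.2 and 41.7), Jarid2 in A3 and G6 (623 and 662), Eed in iXist-ChrX-Cast WT (91.1), Ezh2 in iXist-ChrX-Dom WT (290.8), and Phf19 and Ring1 in G6 (5.95 and 5.73).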
